A study of Mus musculus with 12 samples.

Results

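Respiratory complexes II to V and the electron carrier cytochrome c were followed through the mRNAs of their nuclear-encoded proteins. The members are the rows of the count table whose Ensembl ID maps to Sdha, Sdhb, Sdhc, Sdhd, Cyc1 or Cycs, or to a mouse symbol that starts with Uqcr, Cox4i, Cox5, Cox6, Cox7, Cox8 or Atp5. Symbols with -ps, which mark pseudogenes, were to be left out, and 0 rows with such a symbol met the rest of the rule. This gave 46 of 14675 genes: 4 of complex II, 9 of complex III, the gene of cytochrome c, 15 of complex IV and 17 of complex V.

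Complex II (succinate dehydrogenase) passes electrons from succinate to ubiquinone, complex III passes them from ubiquinol to cytochrome c, and complex IV (cytochrome c oxidase) passes them to oxygen. Complexes III and IV pump protons, and complex V (ATP synthase) uses the proton gradient to make ATP, on which long axons of sensory neurons depend. Most subunits are encoded in the nucleus, translated on cytosolic ribosomes and imported, while a few of complexes III to V are encoded in mitochondrial DNA and translated on mitochondrial ribosomes.

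RNA came from dorsal root ganglion (DRG) material of adult mice of genotype RPL22HA+/+;Advillin-Cre+, in which Cre under the promoter of Advillin, a gene of sensory neurons, puts an HA tag on RPL22, a protein of the large ribosomal subunit. Ribosomes of those neurons can then be pulled down through the tag together with the mRNA they carry (IP), while input is total RNA from all cells of the sample. The 4 groups of 3 columns were IP RNA with AAV-shGpr151 and AAV-e5'UTR (e5UTR), IP RNA with AAV-shGpr151 alone (shGpr151), and input RNA of both treatments. All 4 groups carry the hairpin against Gpr151, and every animal carries the tag and the Cre. What the insert of AAV-e5'UTR holds is not stated in the labels, and no group without the hairpin was analysed here. The design text describes neurons cultured after a preconditioning sciatic nerve injury and the protocol describes freshly collected DRGs, so the state of the cells is not settled.

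The 3 columns of a group held 1514948 to 1517685 counts in IP e5UTR, 1381220 to 1382261 in IP shGpr151, 975403 to 977366 in input e5UTR and 984118 to 985277 in input shGpr151. Between columns of a group 7.24% to 7.72% of genes differed at p under 0.05 in a chi-square test, little more than counting gives, so the 3 columns were summed and counted as 1 sample, a pool. Nothing in the labels says that the columns came from separate animals or cultures. Each fraction therefore has 2 pools, 1 of each treatment, and the e5UTR differences have 1 pool on each side and no replicate check. Levels are CPM (counts scaled to a common library size), after TMM, a method that lets the bulk of genes set the scale. Counting intervals are exact 95% binomial intervals and cover counting error only, since reads of amplified cDNA are not independent molecules.

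The nuclear-encoded respiratory genes as a group stood above the typical gene in the ribosome-bound RNA of the tagged neurons. They held 6.64% (interval 6.62 to 6.66) and 6.30% (6.28 to 6.32) of all counts in IP e5UTR and IP shGpr151, against 2.78% (2.76 to 2.80) and 2.76% (2.74 to 2.78) in input e5UTR and input shGpr151. On the TMM scale the summed level was 48988 and 46093 CPM in the IP pools and 37656 and 37738 CPM in the input pools. The ratio of IP to input of that sum was 1.30 (1.29 to 1.31) with e5UTR and 1.22 (1.21 to 1.23) with shGpr151 alone. Because input is RNA of all cells of the sample, fewer cells of a type and less RNA per cell cannot be told apart in it.

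Of the 46 members 45 passed the filter on low counts, and Cox4i2 did not. By edgeR's quasi-likelihood test over the 4 pools, 24 members were higher in IP and 4 were lower (Benjamini-Hochberg adjusted p under 0.05 over 11343 genes). Of all genes tested 28% were higher and 32.2% lower, 60.2% in all. The median log2 ratio was 0.35 over the members and 0.05 over all genes tested. Among the 41 members with a mean of at least 100 counts per pool, 24 were higher and 4 lower, while 34.4% of all genes at that depth were higher and 45.3% lower. In 29 members both IP pools lay above both input pools, and in 6 they lay below, against 41.3% and 39.8% of all genes. Without the input e5UTR pool 11 members were called higher and 2 lower, and without the input shGpr151 pool 10 and 2. When scaled by library total, the median log2 ratio of all genes tested moved up by 0.89 to 0.94, and 41 members were called higher and 0 lower. The share of all genes called by library total or with a pool left out is not given here. The member counts in those settings therefore have no background to be judged against. The sign of a small ratio therefore rests on the scaling, while the distance of the members' median from the median of all genes was 0.30 under TMM and 0.30 under library total.

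**Figure D1:**
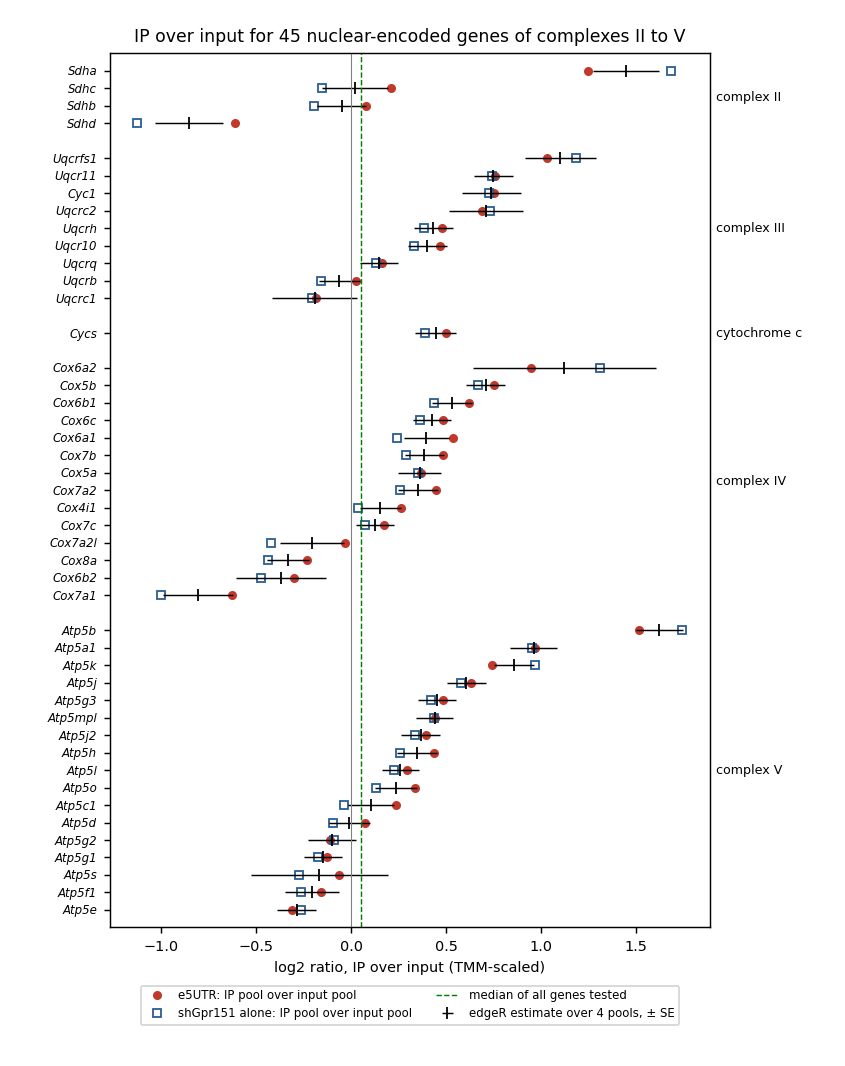
Log2 ratio of IP to input (x axis) for the 45 tested members, ordered by complex. Filled circles are the e5UTR pools, open squares the shGpr151 pools, black ticks the edgeR estimate with its SE, and the dashed line is the median of all genes tested at 0.05. Atp5b and Sdha stand farthest right and Sdhd and Cox7a1 farthest left.

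Complex II was divided. Sdha, the flavoprotein that oxidises succinate, had 65.8 and 66.9 CPM in IP e5UTR and IP shGpr151 and 27.8 and 20.8 CPM in input e5UTR and input shGpr151. Its columns held 135, 140 and 131 counts in IP e5UTR and 133, 116 and 130 in IP shGpr151, against 23, 20 and 17 in input e5UTR and 11, 17 and 17 in input shGpr151. Both IP pools were above both input pools, and the log2 ratio of Sdha was 1.45 ± 0.17 (SE, adjusted p = 1.9e-05), or 2.73-fold higher in IP. Sdhd, a membrane anchor of the complex, went the other way, with 33.9 and 25.4 CPM in the IP pools and 51.8 and 55.5 CPM in the input pools. Its log2 ratio was −0.85 ± 0.18 (adjusted p = 0.0015), but 0.04 by library total (adjusted p = 0.86). Sdhb, the iron-sulfur subunit, and Sdhc, the other anchor, did not pass the test (log2 −0.05 ± 0.13 and 0.02 ± 0.17, adjusted p = 0.76 and 0.93), and their pools overlapped. Summed, complex II had 353 and 304 CPM in the IP pools and 316 and 317 CPM in the input pools, so the fractions overlapped for the complex as a whole.

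Complex III had 6 of 9 members higher in IP and 0 lower, with a median log2 ratio of 0.43. The highest was Uqcrfs1, the Rieske iron-sulfur protein that takes electrons from ubiquinol, with 59.7 and 50.5 CPM in the IP pools and 29.2 and 22.2 CPM in the input pools. It was 2.15-fold higher in IP (log2 1.10 ± 0.19, adjusted p = 0.0003). Cyc1, the heme protein that receives these electrons, had 61.6 and 68.1 CPM in the IP pools and 36.6 and 41.2 CPM in the input pools (1.67-fold, log2 0.74 ± 0.15, adjusted p = 0.0014). Uqcr11, a small accessory subunit, had 1366 and 1374 CPM in the IP pools and 810 and 821 CPM in the input pools (1.68-fold, log2 0.75 ± 0.10, adjusted p = 5.2e-05). In each of these genes the pools of the fractions did not overlap.

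The core proteins of complex III, which face the matrix, differed from each other. Uqcrc2 was 1.64-fold higher in IP (log2 0.71 ± 0.20, adjusted p = 0.0082), at 41.8 and 34.6 CPM in the IP pools and 25.9 and 20.8 CPM in the input pools. That call ended without the IP e5UTR pool or the input shGpr151 pool (adjusted p up to 0.093) and with DESeq2 (0.059). Uqcrc1 was the lowest member of the complex (log2 −0.19 ± 0.22, adjusted p = 0.48), and its 25.6 and 19.2 CPM in the IP pools overlapped its 29.2 and 22.2 CPM in the input pools. Uqcr10 and Uqcrh, further small subunits, were 1.32-fold and 1.35-fold higher in IP (adjusted p = 0.0052 and 0.0035). Uqcrb and Uqcrq did not pass the test (log2 −0.06 ± 0.11 and 0.15 ± 0.10).

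Cycs, which encodes the mobile carrier cytochrome c, had 922 and 829 CPM in the IP pools and 651 and 634 CPM in the input pools. It was 1.36-fold higher in IP (log2 0.45 ± 0.11, adjusted p = 0.0037), a ratio close to that of the median member of complex III. The call ended when either input pool was left out (adjusted p up to 0.11).

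Complex IV had 7 members higher and 2 lower of 14 tested, with a median log2 ratio of 0.36. The nuclear-encoded subunits surround a catalytic core that is made in the mitochondrion. Cox5b, a zinc-binding subunit on the matrix side, had 1121 and 1103 CPM in the IP pools and 666 and 695 CPM in the input pools (1.63-fold higher in IP, log2 0.71 ± 0.10, adjusted p = 9.5e-05). Cox6b1, on the side where cytochrome c docks, had 3904 and 3444 CPM in the IP pools and 2538 and 2550 CPM in the input pools (1.44-fold, log2 0.53 ± 0.11, adjusted p = 0.00098). Cox6c, Cox6a1, Cox7b, Cox5a and Cox7a2 were also higher, between 1.28-fold and 1.34-fold (adjusted p from 0.0032 to 0.015), and each of these 5 calls ended when either input pool was left out, that of Cox5a also with DESeq2 (adjusted p = 0.055). Cox4i1, the largest nuclear-encoded subunit, had 1915 and 1649 CPM in the IP pools and 1598 and 1607 CPM in the input pools and did not pass (log2 0.15 ± 0.11, adjusted p = 0.25), and neither did Cox7c (0.13 ± 0.10). Cox8a, a small membrane subunit, was called lower, with 1074 and 935 CPM in the IP pools and 1261 and 1268 CPM in the input pools (log2 −0.33 ± 0.11, adjusted p = 0.02), but higher by library total (0.56, adjusted p = 0.00038), and the call ended with no filter on low counts (adjusted p = 0.075). Cox7a2l, which helps to join complexes III and IV into supercomplexes, did not pass (log2 −0.20 ± 0.17, adjusted p = 0.32).

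Several complex IV subunits have an isoform known from another tissue, and these isoforms were rare here. Cox7a1, the heart and muscle form of Cox7a2, had 146 and 114 counts in the IP pools and 79 and 87 counts in the input pools. It made up 0.724% (interval 0.612 to 0.851) and 0.689% (0.569 to 0.827) of the Cox7a1 and Cox7a2 counts in IP e5UTR and IP shGpr151, against 1.51% (1.20 to 1.88) and 1.63% (1.31 to 2.01) in input e5UTR and input shGpr151. Its own log2 ratio was −0.81 ± 0.18 (adjusted p = 0.0025), and 0.08 by library total (adjusted p = 0.70). Cox6b2, known from testis, was 0.508% (0.423 to 0.606) and 0.413% (0.328 to 0.514) of the Cox6b1 and Cox6b2 counts in the IP pools and 0.957% (0.718 to 1.25) and 0.774% (0.561 to 1.04) in the input pools. Its log2 ratio did not pass (−0.37 ± 0.24, adjusted p = 0.20). Cox6a2, the muscle form of Cox6a1, had 22 and 26 counts in the IP pools and 4 and 4 in the input pools (log2 1.12 ± 0.48, adjusted p = 0.063). Cox4i2, a form of Cox4i1 known from lung, had 17 and 7 counts in the IP pools and 7 and 6 in the input pools, too few to test. Cox8b had no row in the table, so that pair could not be given.

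Complex V had 9 members higher and 1 lower of 17 tested, with a median log2 ratio of 0.26. Its highest members were the subunits of the catalytic head, where ATP is made. Atp5b, the beta subunit that carries the catalytic sites, had 581 and 566 CPM in the IP pools and 204 and 169 CPM in the input pools. Its columns held 1219, 1167 and 1199 counts in IP e5UTR and 1087, 1074 and 1045 in IP shGpr151, against 135, 145 and 160 in input e5UTR and 139, 127 and 100 in input shGpr151. Atp5b was 3.08-fold higher in IP (log2 1.62 ± 0.12, adjusted p = 3.3e-07), the largest ratio among the members. Atp5a1, the alpha subunit that alternates with beta in the head, had 238 and 217 CPM in the IP pools and 122 and 112 CPM in the input pools (1.95-fold, log2 0.96 ± 0.12, adjusted p = 3.5e-05). The central stalk did not share this. Atp5c1 (gamma, the rotating shaft) and Atp5d (delta) did not pass (log2 0.10 ± 0.12 and −0.01 ± 0.11, adjusted p = 0.48 and 0.94). Atp5e (epsilon) was called lower, with 1006 and 1003 CPM in the IP pools and 1249 and 1203 CPM in the input pools (log2 −0.29 ± 0.10, adjusted p = 0.028). The call ended with treatment as a term (adjusted p = 0.080), with DESeq2 (0.082) and with no filter on low counts (0.11), and by library total Atp5e was called higher (0.60, adjusted p = 0.00013).

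The c ring, which the proton flow turns, is made of 1 mature protein that 3 genes encode behind different import sequences, and only Atp5g3 of these passed the test. Atp5g3 had 1224 and 1179 CPM in the IP pools and 874 and 883 CPM in the input pools (1.37-fold higher in IP, log2 0.45 ± 0.10, adjusted p = 0.0023). Atp5g1 had 1663 and 1589 CPM in the IP pools and 1814 and 1792 CPM in the input pools, with both IP pools below both input pools, but did not pass (log2 −0.15 ± 0.10, adjusted p = 0.22). Atp5g2 did not pass either (log2 −0.10 ± 0.13, adjusted p = 0.50). The difference between the 3 genes was not tested, and the sources used here do not state how reads that match more than 1 of them were divided.

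The membrane subunits Atp5k, Atp5mpl, Atp5j2 and Atp5l were all called higher in IP. Atp5k, the e subunit that helps ATP synthase to form dimers, had 3060 and 3469 CPM in the IP pools and 1833 and 1774 CPM in the input pools (1.81-fold, log2 0.86 ± 0.11, adjusted p = 2.6e-05). The other 3 were 1.20-fold to 1.36-fold higher (adjusted p from 0.0024 to 0.04). The call of Atp5l, the smallest of these, ended with treatment as a term (adjusted p = 0.13), with DESeq2 (0.15) and without 1 column of IP e5UTR. Of the peripheral stalk, which holds the head still, Atp5j (1.52-fold, adjusted p = 0.00031) and Atp5h (1.27-fold, adjusted p = 0.014) were higher. Atp5o and Atp5f1 did not pass (log2 0.24 ± 0.11 and −0.20 ± 0.14). Atp5s, which is not a subunit of the enzyme proper, had 30 and 26 counts in the IP pools and 11 and 12 in the input pools and did not pass (log2 −0.17 ± 0.36).

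**Figure D2:**
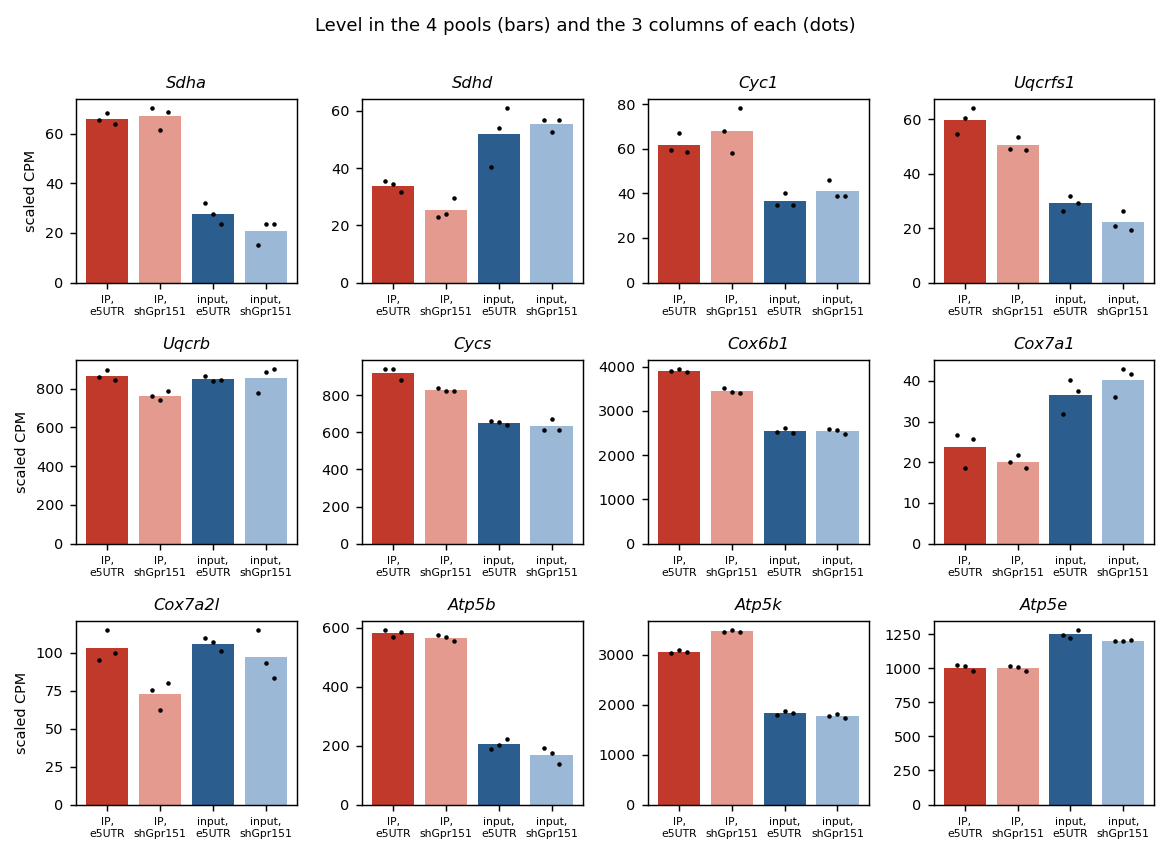
Scaled CPM (y axis) of 12 members in the 4 pools (bars, IP pools left of input pools), with dots for the 3 columns of each pool, each column's count multiplied by 3 before it is divided by the scaled size of the pool. Sdha, Uqcrfs1, Cyc1, Cycs, Cox6b1, Atp5b and Atp5k lie higher in both IP pools, Sdhd, Cox7a1 and Atp5e lower, and Uqcrb and Cox7a2l overlap between fractions.

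Calls that held in every alternative tried, including library total and each pool or column left out, were those of Sdha, Uqcrfs1, Cyc1, Uqcr11, Cox5b, Cox6b1, Atp5b, Atp5a1, Atp5j and Atp5k, 10 of the 28. Sdhd and Cox7a1 held with each pool left out but not by library total, and the rest ended without at least 1 pool. Of the 45 members 3 passed as higher with at least 2-fold (Atp5b, Sdha and Uqcrfs1) and 0 as lower. Of all 11343 genes tested 2371 passed as higher and 3011 as lower at that size. Among the 3122 genes with a mean of at least 100 counts per pool the numbers were 620 and 1047. Large ratios were thus less frequent among the members than among all genes. Members just under 2-fold were Atp5a1 and Atp5k.

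The other genes of the pathway were set beside the members. Of 37 nuclear-encoded complex I subunits 17 were higher in IP and 6 lower (median log2 0.21), and the lowest was Ndufa10, an accessory subunit (log2 −0.96 ± 0.13, adjusted p = 4.5e-05). Of 35 tested assembly factors, proteins that build the complexes without staying in them, 6 were higher and 9 lower (median 0.12). They ran from Lrpprc, which stabilises mitochondrial mRNAs, at log2 3.29 ± 0.53 (adjusted p = 0.0002) down to Coa4, a complex IV assembly factor, at −2.88 ± 0.13 (adjusted p = 4.8e-09). Lrpprc rested on few counts, at 10.5 and 8.12 CPM in the IP pools and 0.463 and 1.39 CPM in the input pools. In an input pool 3 counts are 1.39 CPM, so the size of its ratio is uncertain. Usmg5 and Atpif1, which encode a small membrane subunit and the inhibitor of ATP synthase but carry symbols outside the rule, were chosen for mention after their values were seen. Usmg5 had 4039 and 4013 CPM in the IP pools and 3089 and 3061 CPM in the input pools (1.31-fold higher in IP, adjusted p = 0.0047), and Atpif1 had 2767 and 2668 CPM in the IP pools and 1370 and 1407 CPM in the input pools (1.96-fold, adjusted p = 5.5e-06).

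The subunits of the same complexes that mitochondrial DNA encodes stood far from their nuclear-encoded partners. All 6 (mt-Cytb of complex III, mt-Co1, mt-Co2 and mt-Co3 of complex IV, mt-Atp6 and mt-Atp8 of complex V) were lower in IP, with log2 ratios from −6.83 to −2.36. Summed, they had 787 and 965 CPM in the IP pools and 10773 and 11048 CPM in the input pools. Their IP to input ratio was 0.0730 (interval 0.0708 to 0.0753) with e5UTR and 0.0873 (0.0848 to 0.0900) with shGpr151 alone. The ratio for the nuclear-encoded members of complex IV was 1.31 (1.30 to 1.33) and 1.17 (1.16 to 1.19), while mt-Co1, its catalytic subunit, had 238 and 259 CPM in the IP pools and 1405 and 1433 CPM in the input pools.

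**Figure D3:**
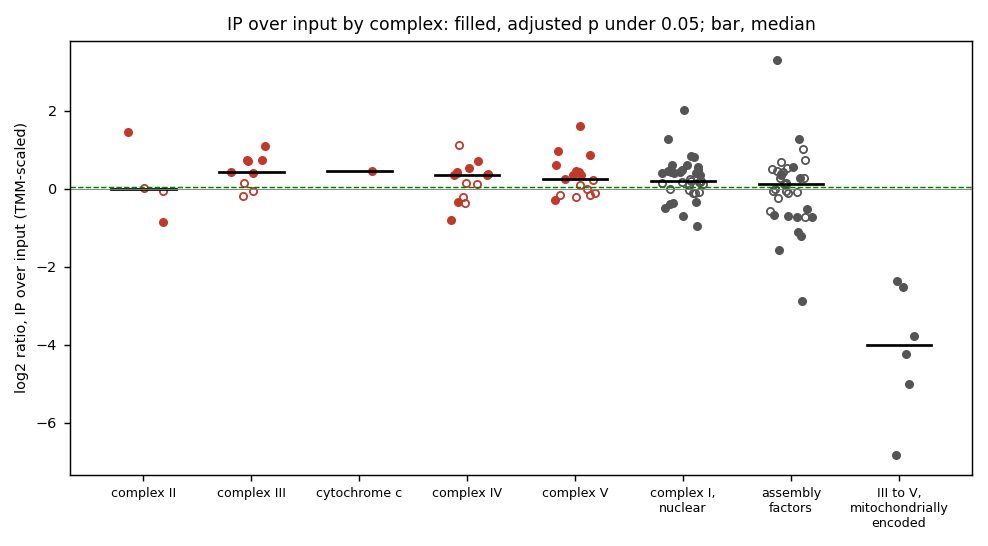
Log2 ratio of IP to input (y axis) by complex for the members (red) and for complex I subunits, assembly factors and mitochondrially encoded subunits (grey), with filled points for adjusted p under 0.05 and bars for medians. The medians of complexes III, IV and V are 0.43, 0.36 and 0.26, and that of the mitochondrially encoded subunits is −4.00.

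Markers show which cells each fraction holds. The 15 markers of sensory neurons summed to 9592 and 9158 CPM in the IP pools and 4751 and 4785 CPM in the input pools (11 higher and 2 lower of 15), and Avil was 3.91-fold higher in IP. The 12 Schwann cell markers summed to 507 and 542 CPM in the IP pools and 1625 and 1617 CPM in the input pools (0 higher, 9 lower), with Ncmap at 0 counts in both IP pools. The 6 tested of 8 satellite glia markers summed to 252 and 263 CPM in the IP pools and 1091 and 1031 CPM in the input pools (1 higher, 3 lower). The 10 macrophage markers had 74.4 and 70.8 CPM in the IP pools and 188 and 186 CPM in the input pools (0 higher, 8 lower), and the 7 tested of 8 fibroblast markers 221 and 176 CPM in the IP pools and 1133 and 1144 CPM in the input pools (0 higher, 6 lower). Of the 5 endothelial markers 1 passed the filter on low counts, at 1.46 and 1.77 CPM in the IP pools and 10.2 and 10.6 CPM in the input pools. The 5 red blood cell markers summed to 3.08 and 2.29 CPM in the IP pools and 2283 and 2333 CPM in the input pools. How far these differences in cell content enter the ratios of the respiratory genes was not tested.

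Promoters of respiratory genes are known to hold sites for the transcription factor NRF1, so promoter windows from RefSeq (build GRCm38.p6, from upstream of the gene start to just after it) were searched on both strands. Of the 33 member genes with a window, 4 (12.1%) held the palindrome of GCGC, AT and GCGC in a row, against 1.07% of 27025 genes and 0.971% of all 32851 windows. With NN (any bases) in place of AT, which takes in the first motif, 10 member genes (30.3%) held it, against 6.997% of genes and 6.23% of windows. The ETS-type motif ACCGGAAG was found in 3 member genes (9.09%, against 2.60% of genes and 2.30% of windows) and the YY1-type motif AAGATGGCG in 2 (6.06%, against 1.64% and 1.40%). The background is all genes with a window, not matched to the members in base content or in level. Whether these shares are particular to respiratory genes was therefore not tested. The 4 genes with the exact palindrome, printed here because they show the motif in its setting, are given on the strand of the gene with the motif in capitals, at chr5:108434430-108434459 (minus strand), chr5:115349101-115349130 (minus), chr9:108936668-108936697 (plus) and chr15:102671070-102671099 (minus).
Atp5k: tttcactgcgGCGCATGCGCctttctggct
Cox6a1: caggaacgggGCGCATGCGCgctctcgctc
Uqcrc1: actccgctctGCGCATGCGCagcgcggctc
Atp5g2: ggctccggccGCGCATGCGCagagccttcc

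These 4 genes did not share a direction in IP against input. Atp5k and Cox6a1 were called higher (log2 0.86 and 0.40), and Uqcrc1 and Atp5g2 did not pass (−0.19 and −0.10). The count table was made on another build, GRCm39, and holds no coordinates.

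The comparison of e5UTR with shGpr151 alone in IP RNA asked how adding AAV-e5'UTR changed what the tagged ribosomes carried, and here most respiratory mRNAs were slightly higher with e5UTR. Of the 45 members 39 had a ratio above 1, and the median ratio was 1.08, against 0.997 over all genes tested. None of the 45 was past 1.5-fold (0 of 45), where 17.4% of all genes were, and 4.84% of those with a mean of at least 100 counts per pool. The counting interval lay above 1 for 30 members and below 1 for 1, against 9.74% and 11.2% of all genes. Among the 41 members with at least that mean it lay above 1 for 28 and below 1 for 1, against 20.7% and 24.3% of all such genes, and 36 of the 41 had a ratio above 1, against 48.6%. That minimum does not match the genes in depth. Many members held far more counts (Cox6c 25065 in IP e5UTR), and intervals narrow with depth. With RLE scaling, in which the median of all genes was 0.955, the interval lay above 1 for 20 members and below 1 for 6, at a median of 1.03. By library total it was 27 and 2, at a median of 1.07. By complex, the interval lay above 1 for 2 of 4 members of complex II, 7 of 9 of complex III, Cycs, 11 of 14 of complex IV and 9 of 17 of complex V. With 1 pool on each side these values describe these libraries and have no replicate check.

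The e5UTR ratio of the summed level in IP was higher for complex IV than for complex V. A change of scaling moves the ratios of all complexes by the same factor, so their order does not depend on it but their side of 1 can. The summed level of complex IV was 22507 CPM in IP e5UTR and 20359 CPM in IP shGpr151, a ratio of 1.11 (interval 1.10 to 1.11), and that of complex V was 18464 CPM in IP e5UTR and 18208 CPM in IP shGpr151 (1.01, 1.01 to 1.02). The sum of complex V is pulled down by 1 abundant gene, Atp5k, with 3060 CPM in IP e5UTR and 3469 CPM in IP shGpr151. The median ratio of single members was 1.13 in complex IV, 1.07 in complex III and 1.06 in complex V. Complex III had 6742 CPM in IP e5UTR and 6394 CPM in IP shGpr151 (1.05, 1.04 to 1.07). The ratio was 1.11 (1.07 to 1.16) for cytochrome c and 1.16 (1.09 to 1.24) for complex II, the least abundant complex. Nuclear-encoded complex I genes had 25826 CPM in IP e5UTR and 23902 CPM in IP shGpr151 (1.08, 1.07 to 1.09). The mitochondrially encoded subunits of complexes III to V had 787 CPM in IP e5UTR and 965 CPM in IP shGpr151 (0.815, 0.784 to 0.848). Their e5UTR ratio in input also lay below 1 (0.975, 0.958 to 0.993). These RNAs are translated on mitochondrial ribosomes, and how they came to be in the IP was not tested. The 0.815 is therefore not read as a change in what the tagged ribosomes carried.

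The largest ratio was that of Cox7a2l, with 196, 237 and 205 counts in the columns of IP e5UTR and 142, 118 and 151 in those of IP shGpr151. It stood at 103 CPM in IP e5UTR and 72.5 CPM in IP shGpr151, a ratio of 1.43 (interval 1.26 to 1.62). The columns did not overlap, but columns of a pool are not counted as replicates here. Cox6b2 was at 1.40 (1.05 to 1.87) and Sdhd at 1.33 (1.07 to 1.66), both from few counts. The lowest was Cox6a2 at 0.777, with an interval of 0.420 to 1.43 that includes 1. Among abundant members Cox6a1 (1.20, 1.16 to 1.25), Cox4i1 (1.16, 1.13 to 1.19), Cox8a (1.15, 1.11 to 1.19) and Cox6b1 (1.13, 1.11 to 1.16) were higher with e5UTR, as were Sdhb (1.22, 1.13 to 1.33) and Atp5f1 (1.26, 1.16 to 1.37).

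Atp5k was the exception with an interval below 1. It had 6223, 6357 and 6291 counts in the columns of IP e5UTR and 6535, 6612 and 6509 in those of IP shGpr151, although the e5UTR libraries were larger. Its level was 3060 CPM in IP e5UTR and 3469 CPM in IP shGpr151, a ratio of 0.882 (interval 0.865 to 0.900). The ratio was 0.875 by library total and 0.845 with RLE scaling. Sdha (0.984, 0.854 to 1.14), Cyc1 (0.904, 0.783 to 1.04), Uqcr11 (0.995, 0.964 to 1.03) and Atp5b (1.03, 0.979 to 1.08), all called higher in IP than in input, had intervals that included 1. Uqcrfs1 (1.18, 1.01 to 1.38) and Atp5a1 (1.10, 1.02 to 1.18), also called higher in IP, had intervals above 1.

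Input RNA showed no such shift. The summed level of all members was 37656 CPM in input e5UTR and 37738 CPM in input shGpr151 (ratio 0.998, interval 0.988 to 1.01). The median ratio was 0.997 over the members and 1.00 over all genes, and 21 of 45 members had a ratio above 1. None was past 1.5-fold (0 of 45, against 24.7% of all genes). The interval lay above 1 for Atp5b (1.20, 1.04 to 1.39), Atp5f1 (1.17, 1.03 to 1.34) and Cox5a (1.10, 1.01 to 1.20) and below 1 for Cox7b (0.941, 0.896 to 0.988), which is 3 and 1 of 45, against 2.35% and 2.64% of all genes. Of genes with a mean of at least 100 counts per pool 2.98% were past 1.5-fold, 3.3% had an interval above 1 and 3.94% below 1, and 49.1% had a ratio above 1, where 18 of 41 members did. Atp5k was at 1833 CPM in input e5UTR and 1774 CPM in input shGpr151 (1.03, 0.988 to 1.08), and Cox7a2l at 106 CPM in input e5UTR and 97.1 CPM in input shGpr151 (1.09, 0.901 to 1.32). Input pools held fewer counts per gene than IP pools, so their intervals are wider, and the difference between the fractions in the e5UTR ratio was not tested with replicates.

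**Figure D4:**
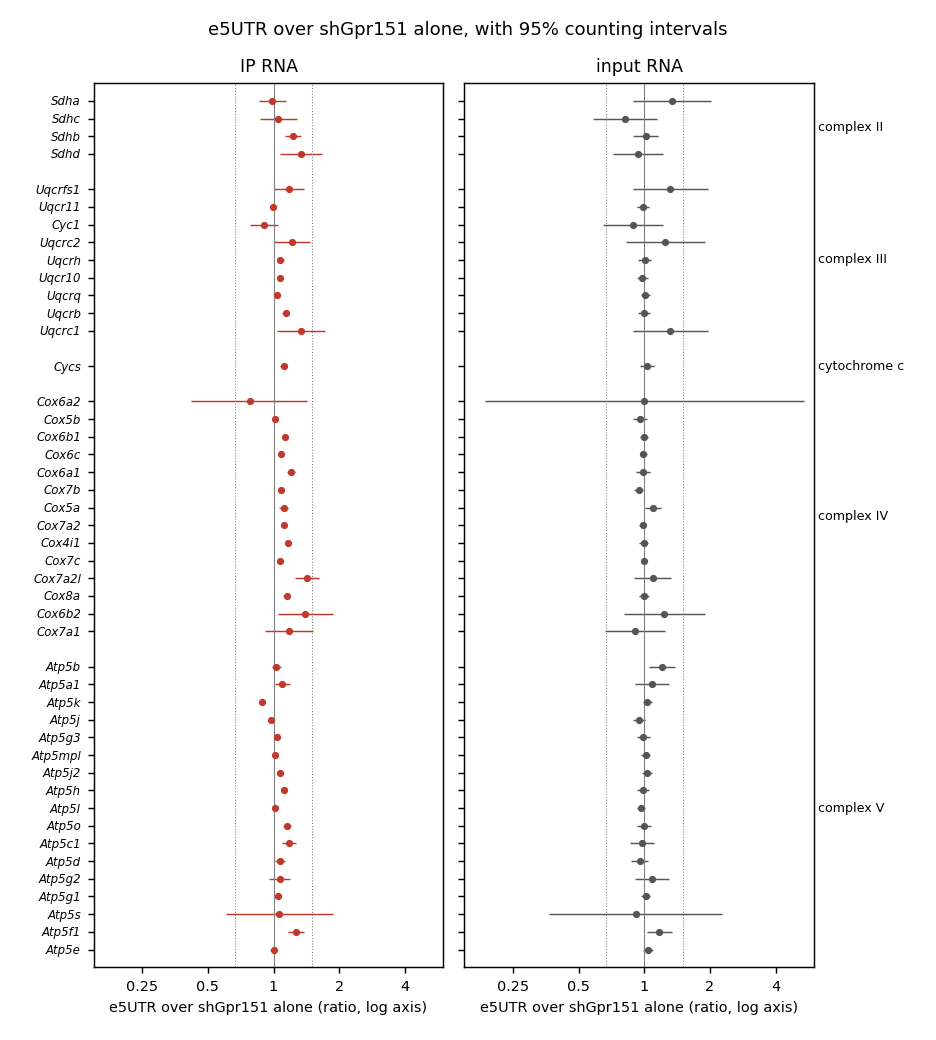
Ratio of the e5UTR pool to the shGpr151 pool (x axis, log scale) in IP RNA (left) and input RNA (right) for the 45 tested members, with 95% counting intervals and dotted lines at 1.5-fold either way. In IP most points lie to the right of 1, with Cox7a2l at 1.43 and Atp5k at 0.882, and in input they scatter around a median of 0.997.

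Because each side is 1 pool, the 12 columns could serve only for a test on the reads of these pools. With edgeR's quasi-likelihood test over the 12 columns 20 of 43 tested members were higher and 1, Atp5k, lower with e5UTR in IP (adjusted p under 0.05), where 4.71% of genes were higher and 6.25% lower, a background not matched in depth. In input 0 of 43 passed (4 had an unadjusted p under 0.05), where 0.0124% and 0.186% of genes did. Atp5k stood at log2 −0.18 ± 0.02 (adjusted p = 3.6e-07) and Cox4i1 at 0.22 ± 0.02 (4.7e-08) in that test, which compares these libraries, not the treatments. Gpr151 itself, the target of the hairpin, had 20.8 CPM in IP e5UTR and 19.1 CPM in IP shGpr151, and 13.4 CPM in input e5UTR and 16.2 CPM in input shGpr151, with intervals of both e5UTR ratios that include 1 (0.836 to 1.42 in IP and 0.489 to 1.40 in input).

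Some levels carry a limit from counting. In RefSeq's annotation 15 of the 44 members found there overlap another gene, among them Atp5j with Gabpa, Atp5d with Cbarp, Atp5a1 with Haus1 and Uqcrq with Gdf9. The sources used here state neither whether strand was used in counting nor how reads from processed pseudogenes, which many of these genes have, were assigned.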

How the data were processed

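Estimated counts per Ensembl gene ID, deposited by the authors as whole numbers, were used unchanged, in 12 columns each matched to 1 sample by name. Per the labels' protocols, cDNA was amplified and barcoded with an Oxford Nanopore kit, and per the submitters' processing notes minimap2, Salmon and the builds GRCm39 and mm39 were involved. The sources used here state no versions, annotation, filters or counting settings. Symbols were found for 13191 of 14675 IDs (89.9%).

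The 3 columns of a group were summed to a pool. IP against input was fitted over the 4 pools with edgeR 4.0.16 (R 4.3.3, limma 3.58.1), TMM scaling and the quasi-likelihood test, with fraction as the only term. Genes were kept by filterByExpr with 10 as the count minimum and 15 as the total minimum, which left 11343, with a biological coefficient of variation of 10.4% and TMM factors from 0.732 to 1.37. SE is the log2 ratio divided by the root of the F statistic. The fit was also run on simulated data in which few genes changed, as many up as down. That run could not test how the scaling handles a wide difference between IP and input. Ratios of 2 pools have exact binomial 95% intervals and no test. Alternatives were RLE scaling, library total, no filter, a mean of 30 counts, DESeq2 1.42.0, treatment as a term, the 12 columns as samples with and without their replicate numbers, and each column or pool left out.

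The members and lists were chosen with earlier results of these data known. Values are given for each complex's highest and lowest members, members past 2-fold, the main catalytic and structural subunits, the tissue isoform pairs, and, for e5UTR, members at the ends of the range. A planned comparison with protein length was not run, since protein lengths were not available here. RefSeq promoters were matched by symbol for 33 of 46 members, and RefSeq genes for 44. Where a pool held 0 counts, the limit is 3 counts, or 0.487 to 1.39 CPM depending on the pool.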

Additional observations from a re-analysis of the deposited data

Results flagged for a closer look

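Cox7b was singled out because its e5UTR ratio lay on opposite sides of 1 in the 2 fractions, with both counting intervals clear of 1. The ratio of e5UTR to shGpr151 alone was 1.08 (1.05 to 1.11) in IP and 0.941 (0.896 to 0.988) in input. The difference was not tested with replicates, because each value comes from 1 pool on each side.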

How the results depend on the processing

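Direction and call changed most with scaling and with the number of pools. By library total 41 members were called higher and 0 lower, at a median of 1.24 over the members and 0.94 over all genes tested. Under that scaling 14 ratios turned from negative to positive: Sdhd (0.0361), Cox7a1 (0.0808), Cox6b2 (0.52), Cox8a (0.56), Atp5e (0.60), Cox7a2l (0.68), Atp5f1 (0.68), Uqcrc1 (0.70), Atp5s (0.71), Atp5g1 (0.74), Atp5g2 (0.79), Uqcrb (0.83), Sdhb (0.84) and Atp5d (0.88). With no filter 2 members were called lower, 1 was past 1.5-fold with e5UTR in IP, and Sdhb (0.0325), Atp5d (0.0717) and Uqcrb (0.0187) turned positive, as Sdhc turned negative (-0.00485) with a mean of 30 counts. The member past 1.5-fold was Cox4i2, which enters only without the filter, with 17 counts in IP e5UTR and 7 in IP shGpr151. The cause of the other changes was not tested. With 1 pool or column left out, calls ran from 12 to 33 (10 to 29 higher, 2 to 4 lower), the lowest without the input shGpr151 pool, where fewer samples remain and the lone input pool is assumed to vary like the IP pools. Members past 1.5-fold with e5UTR ran from 0 to 1 in IP and from 0 to 1 in input. Ratios near 0 changed sign in some of these: Sdhb ran from -0.0949 to 0.111, Sdhc from -0.109 to 0.179, Uqcrb from -0.0918 to 0.0475, Uqcrc1 from -0.369 to 0.0261, Cox7a2l from -0.377 to 0.0489 and Atp5d from -0.0360 to 0.0606. Of the 28 calls 27 held with any column left out, 12 with any pool left out and 21 under the other settings. With the 12 columns as samples 8 members were called lower and 21 were called with e5UTR in IP. With the replicate block 7 were called lower and 21 with e5UTR in IP. Deviations of same-numbered columns correlated from -0.20 to 0.22 over 18 pairs, and 0 of 12 columns correlated best with their own number in every other group. Columns of a group differ by little more than counting noise, so these correlations cannot show whether same-numbered columns share a source. RLE scaling, DESeq2 (24 calls) and treatment as a term (26 calls) reversed no direction. Outside the main fit, the share of all genes called in IP against input is not given here. The numbers of members called in these alternatives therefore have no background to be judged against. For the e5UTR calls in IP that share is given above only for the 12 columns without the replicate block. The calls of Atp5e and Atp5l ended with treatment as a term, and those of Atp5e, Atp5l, Cox5a and Uqcrc2 with DESeq2. Depth limits the rare members: Cox6a2, Atp5s and Cox4i2 had at most 30 counts in a pool. The planned comparison of the IP to input ratio with protein length was not run.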
